A study of Homo sapiens with 2 samples.

Results

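Expression of 8 genes tied to the glucocorticoid pathway was compared in 1 pair of RNA-seq libraries: the glucocorticoid receptor gene NR3C1, CREBRF, the glucocorticoid-responsive genes FKBP5, TSC22D3 and SGK1, the stress sensor gene ERN1, and the coactivator genes NCOA1 and NCOA2. They were picked by name out of 62699 genes with counts, with the contrast of these libraries in view. Their ratios are therefore a description, and no test of them was made. Polyadenylated RNA was sequenced from cells labelled HCC1954, an established HER2-positive breast cancer line, in 1 library labelled ASO-NC and 1 labelled ASO-1235. LINC01235, the long non-coding RNA whose role the series asks about, had 1337 counts under ASO-NC and 0 under ASO-1235, at least 373-fold lower against a floor of 3 counts. The labels give no dose, time or hormone content of the medium for either group.

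With 1 library a group there is no replicate check. Levels are in CPM, counts scaled to the size of each library after TMM normalization, and a ratio is ASO-1235 over ASO-NC. Its 95% interval is exact given the sum of both counts and covers counting error only. It was taken on halved counts, since most counts were even numbers, as when both reads of a pair are counted. A call, higher or lower, required 1 CPM or more in either library, a difference of 1.5-fold or more and an interval that excluded 1. Of 14291 genes at 1 CPM, 722 (5.05%) were called higher and 290 (2.03%) lower. Higher calls were 71.3% of all calls, or 85.1% when scaled to the total count and 64.5% with DESeq2 size factors. The libraries held 48092494 and 37916307 counts.

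Glucocorticoids enter the cell and bind the receptor encoded by NR3C1, which is held ready by HSP90 and its co-chaperones. The bound receptor moves to the nucleus, binds palindromic response elements and recruits p160 coactivators such as the products of NCOA1 and NCOA2. FKBP5, TSC22D3 and SGK1 are textbook genes induced this way: FKBP5 is a co-chaperone that lowers the receptor's affinity for hormone, TSC22D3 encodes the leucine zipper protein GILZ, and SGK1 encodes a kinase that acts on ion channels and survival. CREBRF encodes a partner of CREB3, a membrane-bound transcription factor of the secretory pathway, and ERN1 encodes IRE1 alpha, the sensor of the unfolded protein response that splices XBP1 mRNA.

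The promoter of CREBRF is shown because that gene had the largest ratio of the 8. For FKBP5 and SGK1, hormone targets with ratios near 1, the window shown was chosen because it held AGAACA. Their other windows, and the 4 windows of TSC22D3, held no AGAACA and are not shown. The windows come from RefSeq (GRCh38.p14), run from 250 bases before to 50 after an annotated start, and are written 5′ to 3′ on the gene's strand. For 7 of the genes, all but NCOA2, 21 such windows were searched on both strands. Capitals in CREBRF mark CACGTG, an E-box, and CCAAT, read here on the other strand as ATTGG. In FKBP5 and SGK1 they mark AGAACA, an arm of the glucocorticoid response element.
CREBRF, chr5:173056102-173056401, plus strand: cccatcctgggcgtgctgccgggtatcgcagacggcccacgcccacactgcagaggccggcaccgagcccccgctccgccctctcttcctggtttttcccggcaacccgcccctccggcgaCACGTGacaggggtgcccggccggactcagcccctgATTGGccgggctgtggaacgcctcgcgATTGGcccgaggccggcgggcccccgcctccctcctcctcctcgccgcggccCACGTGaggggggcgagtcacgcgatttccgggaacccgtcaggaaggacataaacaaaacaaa
FKBP5, chr6:35728534-35728833, minus strand: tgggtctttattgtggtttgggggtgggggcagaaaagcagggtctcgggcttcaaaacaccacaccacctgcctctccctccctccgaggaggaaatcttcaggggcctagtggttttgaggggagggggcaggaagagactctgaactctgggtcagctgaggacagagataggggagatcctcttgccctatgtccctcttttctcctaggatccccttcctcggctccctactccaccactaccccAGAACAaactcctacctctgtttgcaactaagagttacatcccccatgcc
SGK1, chr6:134177812-134178111, minus strand: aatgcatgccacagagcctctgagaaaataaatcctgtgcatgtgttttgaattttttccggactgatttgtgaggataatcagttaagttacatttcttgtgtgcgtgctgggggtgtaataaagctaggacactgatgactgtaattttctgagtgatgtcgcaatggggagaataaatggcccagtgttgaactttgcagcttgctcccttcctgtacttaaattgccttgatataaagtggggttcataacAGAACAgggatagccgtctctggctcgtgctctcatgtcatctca

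The full palindrome, AGAACA followed by 3 free bases and TGTTCT, was in none of the 21 windows, and in 1 of 35116 windows of all genes. AGAACA was in 1 window each of FKBP5, SGK1 and NCOA1, against 14.8% of all windows. The CREBRF window held 2 matches of CACGTG, at bases 122 and 237 counted from its 5′ end, where 0.664% of all windows held 2 or more. CACGTG was searched after the sequence had been seen. It contains CACG on each strand, so 4 of the 7 CACG matches there belong to it. CACG alone was in 67.0% of all windows. CREBRF also held 2 CCAAT matches, at bases 158 and 185, as did 10.8% of all windows with 2 or more. ERN1 had 1 CCAAT match and no CACGTG, and 1 of the 2 FKBP5 windows held CACGTG. A match describes letters in a window, not a bound site.

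The receptor gene and CREBRF were higher in the ASO-1235 library, while TSC22D3 and SGK1, textbook targets of the receptor, were not called. FKBP5, another target, was under the minimum level and could not be called. CREBRF stood at 2.68 times and NR3C1 at 1.74 times the ASO-NC level. With the trend of all ratios with GC content and length removed, CREBRF was at 2.18, and NR3C1 at 1.48 was no longer called. ERN1 and NCOA1 were higher by less than 1.5-fold, and FKBP5, SGK1 and TSC22D3 had intervals that included 1. Of the 7 genes that reached 1 CPM, 2 were called higher and 0 lower. This count was fixed in part by how the genes were picked and is not read against the 5.05% and 2.03% of all genes. At 2-fold CREBRF alone was called, 1 of 7, where 2.24% of all genes were higher and 0.518% lower. At any size of change 5 of 7 had an interval above 1 and 0 below it, where 22.7% and 23.2% of all genes did. Both of these counts carry the same limit and are not read against all genes either. NCOA2, 1 of the 5, had a ratio of 0.991 once the trend in GC content and length was removed.

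**Figure D1:**
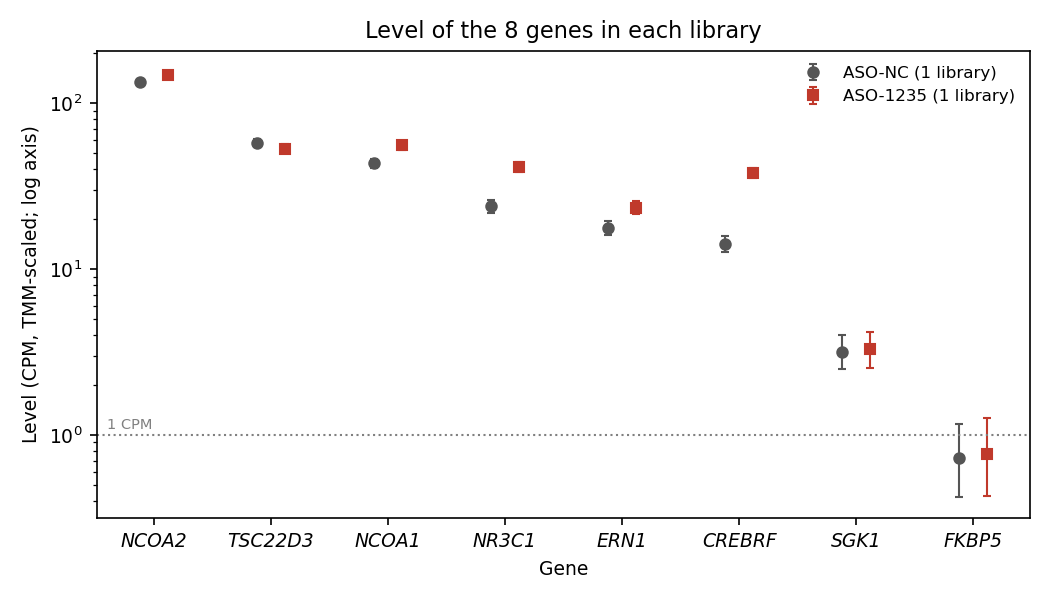
Level of each gene in CPM on a log axis, with 1 point per library and bars for the 95% Poisson interval on halved counts. CREBRF and NR3C1 show the widest gaps between the libraries, 14.2 against 37.9 CPM and 23.9 against 41.4 CPM, and FKBP5 lies below 1 CPM in both.

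NR3C1 (ENSG00000113580.15) lies on the minus strand at chr5:143277931-143435512 (GRCh38, GENCODE 29) and has 16 annotated transcripts. It had 1114 and 1618 counts, with ASO-NC given first as in all pairs of values that follow. These were 23.9 CPM (21.9 to 25.9) and 41.4 CPM (38.6 to 44.4), and the intervals do not overlap. The ratio was 1.74 (1.56 to 1.94), and 512 of the 14291 genes had a higher ratio. With the trend of all ratios with GC content and length removed, it was 1.48 and under the size of a call. In bulk RNA, a change in the share of expressing cells and a change in RNA per cell cannot be told apart, here or for any gene that follows.

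The 4 other steroid hormone receptor genes listed here had ratios nearer to 1. PGR, the progesterone receptor gene, had a ratio of 1.08 (1.06 to 1.10). ESR1 had a ratio of 1.05 (0.975 to 1.14), and ESR2 1.32 (0.731 to 2.40) from 48 and 53 counts. NR3C2, the mineralocorticoid receptor gene, which also binds cortisol, had 272 and 193 counts, a ratio of 0.848 (0.647 to 1.11). Of these 5 receptor genes, NR3C1, picked with the contrast in view, alone was called. Of all genes, 5.05% were called higher and 2.03% lower.

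Per kilobase of exon, NR3C1 was a minor receptor transcript in these cells. Its level was 2.60 and 4.52 CPM per kb. PGR stood at 63.2 and 68.5 CPM per kb, which was 24.3 and 15.2 times the NR3C1 level. ESR1 was at 4.20 and 4.43 CPM per kb. NR3C1 thus made up 3.66% of the summed level of these 5 receptor genes under ASO-NC and 5.76% under ASO-1235. In the ASO-1235 library its level per kb was next to that of ESR1.

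HCC1954 is generally described as negative for oestrogen and progesterone receptors, and these levels go against that. PGR had 974 and 1056 CPM. TFF1 and GREB1, classical oestrogen-induced genes, had 436 and 316 CPM and 579 and 509 CPM. The basal keratin genes KRT5, KRT6A and KRT14 had 0 counts in both libraries. KRT17, another basal keratin gene, had 96 and 97 counts, and TP63 80 and 81. EGFR, at 71.2 and 78.7 CPM, CD44, at 56.6 and 55.9, and VIM, at 15.8 and 21.9, are other genes of basal-type lines and were detected. The line is therefore named here as labelled, and its identity was not tested. These genes were looked at after the receptor values had been seen. Of the fixed epithelial and HER2 markers, 8 of 8 were above 1 CPM, with ERBB2 at 4860 and 4628 CPM. Among markers of other cell types, 5 immune markers summed to 2.23 and 1.54 CPM, and the 6 endothelial and adipocyte markers to 13.1 and 10.9 CPM. The 6 fibroblast markers summed to 45.4 and 41.9 CPM, with PDGFRB at 0. Most of that sum was COL1A1, at 44.3 and 39.9 CPM, which under ASO-NC was above NR3C1 at 23.9 CPM. LYZ, an immune marker, was called lower from 98 and 44 counts. FAP, a fibroblast marker, was called higher from 28 and 53 counts and reached 1 CPM in the ASO-1235 library alone.

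No gene of the chaperone machinery that holds the receptor was called. Of 21 listed genes 18 reached 1 CPM, and 0 were called either way. With 5.05% of all genes called higher and 2.03% lower, 0 of 18 is near the share of all genes. Ratios below 1 were found for 14, or 11 when scaled to the total count. Of all 14291 genes tested, 7195 had ratios below 1 under TMM. The median log2 ratio was -0.16, or -0.090 with the trend in GC content and length removed, where that of all genes tested was -0.0025. HSPA8, which encodes the constitutive HSC70, had the lowest ratio, 0.766 (0.754 to 0.779), and PPID, the gene of an HSP90-binding cyclophilin, the highest, 1.10 (0.943 to 1.29). The HSP90 genes HSP90AA1 and HSP90AB1 were at 0.957 (0.942 to 0.971) and 0.879 (0.864 to 0.895). HSPA1A and HSPA1B are near-identical copies with 14 and 6 counts and with 0 counts, so their values are uncertain.

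FKBP5 (ENSG00000096060.15, chr6:35573585-35728583, minus strand, 4 transcripts) was barely detected. It had 34 and 30 counts, or 0.728 and 0.768 CPM, and did not reach the minimum for a call. The ratio of 1.06 came with an interval from 0.491 to 2.25, so a change of 2-fold either way was not excluded at this depth. The RefSeq window shown above with AGAACA is the more upstream of its 2 annotated starts. Its relative FKBP4, a co-chaperone of the same receptor complex, had 227 and 203 CPM and a ratio of 0.891 (0.855 to 0.929). Of 17 genes of the FKBP family and relatives 10 reached 1 CPM, 0 were called, and 9 had ratios below 1 under TMM and total-count scaling alike. Their median log2 ratio was -0.21, or -0.12 with the trend in GC content and length removed. Of all genes, 5.05% were called higher and 2.03% lower, so 0 of 10 is near the share of all genes. FKBP11 was the lowest of these 10 at 0.773 (0.650 to 0.918) and FKBP14 the highest at 1.06 (0.948 to 1.19).

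TSC22D3 (ENSG00000157514.18, chrX:107713221-107777342, minus strand, 17 transcripts) was the most abundant of the 3 hormone targets. It had 2685 and 2073 counts, or 57.5 CPM (54.5 to 60.7) and 53.1 CPM (49.9 to 56.4). The intervals overlap, and the ratio of 0.923 (0.851 to 1.002) had an upper bound just above 1. On the counts as deposited the interval was 0.871 to 0.978. NCBP2L overlaps its locus on the other strand with 6 and 6 counts. In its family, TSC22D2 had a ratio of 1.34 (1.20 to 1.49), TSC22D1 1.09 (1.03 to 1.16) and TSC22D4 0.837 (0.757 to 0.925). With the trend in GC content and length removed, TSC22D2 was at 1.19, TSC22D1 at 1.11 and TSC22D4 at 0.954. Of the family 0 of 4 were called, where 5.05% of all genes were called higher and 2.03% lower. Per kilobase, TSC22D3 made up 33.6% of the family's summed level under ASO-NC and 31.9% under ASO-1235.

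SGK1 (ENSG00000118515.12, chr6:134169246-134318112, minus strand, 30 transcripts) had 148 and 128 counts, or 3.17 CPM (2.49 to 3.98) and 3.28 CPM (2.52 to 4.19). The ratio was 1.03 (0.728 to 1.46), with intervals that overlap over most of their length. SGK3, a paralogue, was more abundant at 22.0 and 22.4 CPM, with a ratio of 1.02 (0.896 to 1.16), and SGK2 had 3 and 0 counts. Of 10 listed regulators and substrates of the kinase, SGK1 to SGK3 left out, all 10 reached 1 CPM. Called higher were 2 of 10, where 5.05% of all genes were, and 0 were called lower, with a median log2 ratio of 0.13, or 0.016 with the trend in GC content and length removed. RICTOR, a subunit of the mTORC2 complex that phosphorylates SGK1, was at 1.75 (1.64 to 1.87), and NEDD4, a ubiquitin ligase gene, at 1.61 (1.47 to 1.77). NDRG1, whose protein is a substrate of SGK1, was at 0.797 (0.730 to 0.870), and SCNN1A, which encodes a sodium channel subunit and is itself induced by the hormone, at 0.850 (0.810 to 0.892). RICTOR and NEDD4 transcripts have GC contents of 36.5% and 37.7%, at the low end where ratios ran high. With the trend in GC content and length removed they stood at 1.42 and 1.35, and neither was called.

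Beyond these 3 targets, genes that glucocorticoids are known to induce were mixed, with more ratios above than below 1. Of 40 listed genes 30 reached 1 CPM, 6 were called higher and 0 lower, and 22 had ratios above 1 (25 when scaled to the total count). Without the 4 of them that are described here on their own, 5 of 27 (18.5%) were called higher, where 5.05% of all genes were, with a median log2 ratio of 0.34. MT1X, 1 of these 5, reached 1 CPM in the ASO-1235 library alone, so its ratio above 1 was built in. Among genes at 1 CPM in both libraries, 4 of 26 were called higher, against 3.52% of all such genes, and the median was 0.31. The list was put together with earlier results of these libraries known, so this share is no independent evidence of a direction.

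IRS2, which encodes an adaptor of the insulin receptor, had 200 and 515 counts, a ratio of 3.08 (2.43 to 3.92). PER1, a repressor of the circadian clock, had 491 and 1121 counts, a ratio of 2.73 (2.35 to 3.19). ANXA1, the gene of annexin A1, had 340 and 664 counts, a ratio of 2.34 (1.94 to 2.83). These 3 rank beside CREBRF at the top of the list. MAOA and MT1X, named after their values were seen, were called from few counts: 53 and 87, and 26 and 47. MT1X was not called with a 99% interval. In contrast, DUSP1 at 1.21 (1.08 to 1.36), KLF9 at 1.36 (1.20 to 1.53) and TNFAIP3 at 1.33 (1.19 to 1.49) were not called. MT2A, a metallothionein gene, was at 0.721 (0.663 to 0.783), and MAP3K6 at 0.734 (0.645 to 0.834). NFKBIA, the gene of an NF-kB inhibitor that glucocorticoids induce, was at 0.989 (0.929 to 1.05). The genes that were not called were also chosen after their values were seen.

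Among inflammatory genes that the receptor is known to repress, 4 chemokine genes were called higher. Of 18 listed genes 8 reached 1 CPM. CXCL3 and LIF reached it in the ASO-1235 library alone, so their ratios above 1 were built in. Of the 6 at 1 CPM in both libraries, 4 were called higher, where 3.52% of all such genes were, 0 were called lower, and 6 had ratios above 1. This list too was put together with earlier results of these libraries known, so its share is no independent evidence of a direction. CXCL8 had 270 and 554 counts, a ratio of 2.45 (1.99 to 3.04). CCL2 was at 1.87 (1.53 to 2.31), CCL20 at 2.06 (1.38 to 3.13) and CXCL1 at 1.62 (1.25 to 2.11). The other 10 of the list stayed under 1 CPM in both libraries: 4 had a higher level in the ASO-1235 library, 5 a lower one, and 1 had no counts in either. IL1B had 14 and 0 counts, PTGS2 8 and 0, NOS2 12 and 0, and IL6 5 and 22, named after their values were seen.

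**Figure D2:**
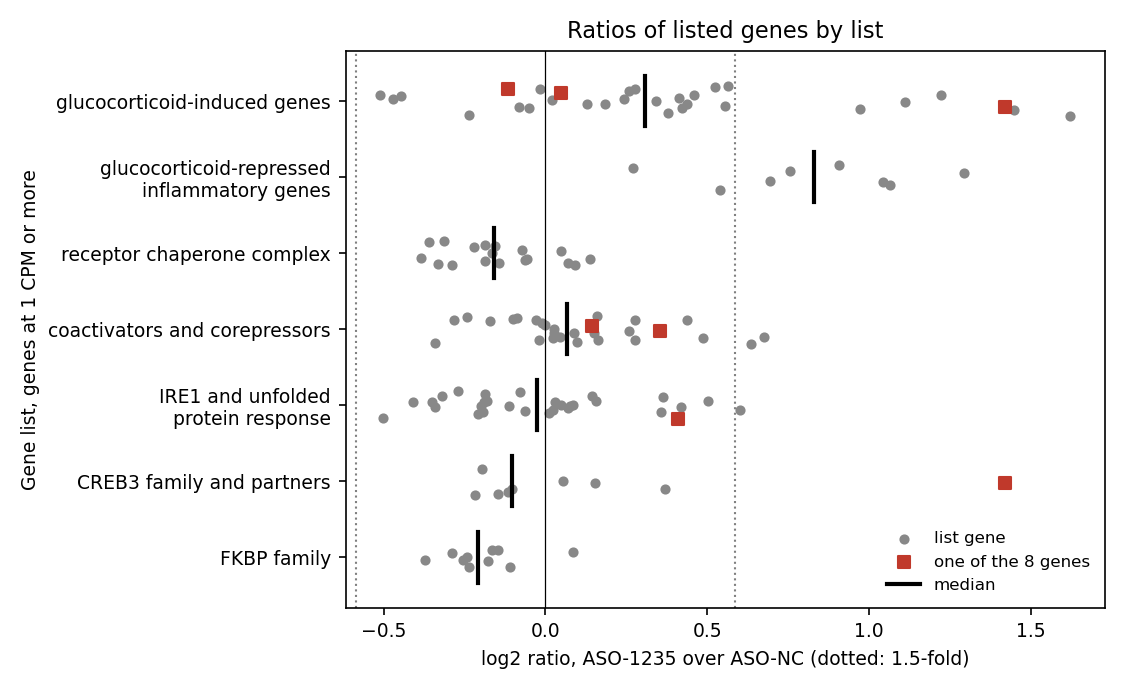
The log2 ratio of each gene at 1 CPM or more, by list, with squares for genes among the 8 described and a bar at the median. The induced and the repressed lists have medians of 0.31 and 0.83, with 1 and 2 genes that reached 1 CPM in the ASO-1235 library alone, the chaperone list -0.16 and the FKBP family -0.21.

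Genes of glucocorticoid metabolism were few here. HSD11B1, the enzyme gene that regenerates cortisol from cortisone, had 0 counts in both libraries. HSD11B2, which encodes the enzyme that inactivates cortisol, had 352 and 213 counts, a ratio of 0.724 (0.563 to 0.926), which is under 1.5-fold. Its transcript has a GC content of 63.2%, at the high end where ratios ran low, and its ratio was 0.831 with the trend in GC content and length removed. CYP3A5 was the highest of the 4 genes at 1 CPM, at 1.40 (0.870 to 2.26). Of these 4, 0 were called, where 5.05% of all genes were called higher and 2.03% lower.

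CREBRF (ENSG00000164463.12, chr5:173056352-173139284, plus strand, 6 transcripts) had 662 and 1481 counts. The levels were 14.2 CPM (12.7 to 15.8) and 37.9 CPM (35.2 to 40.8), far outside each other's intervals. The ratio was 2.68 (2.35 to 3.05), and 147 of the 14291 genes had a higher ratio. At its level of expression such ratios were rare. Of 4672 other genes with a mean CPM within 2-fold of that of CREBRF, 2 had a ratio as high, and 82 (1.75%) were called higher. CREBRF was picked with the contrast in view, so this rank is a description and no test. The ratios ranked keep the trend in GC content and length, and with it removed CREBRF was at 2.18.

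The 5 genes of that range with the nearest log2 ratio to the 1.42 of CREBRF were PGM2L1 at 1.39, PER1 at 1.45, ID4 at 1.39, EGR1 at 1.27 and CREB5 at 1.58, so the last lay 0.16 away. Likeness here is over 2 libraries only. TSC22D3 sat in the bulk of its own range: of 4332 genes within 2-fold of its mean CPM, 2877 had a ratio as high or higher, and the nearest, TTK, PCTP, ZNF740, TMED4 and NECTIN4, all had log2 ratios within 0.001 of its -0.12.

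The partner of CREBRF did not share its ratio. CREB3 had 1133 and 985 counts, or 24.3 and 25.2 CPM, a ratio of 1.04 (0.919 to 1.18). Of 10 genes of the CREB3 family and its partners 9 reached 1 CPM, and CREBRF was the 1 called. Without CREBRF, the median log2 ratio was -0.11 and 0 of 8 were called, where 5.05% of all genes were called higher and 2.03% lower. MBTPS2, which encodes a protease that releases membrane-bound factors, was the highest of these 8 at 1.29 (1.21 to 1.38). HCFC1, the gene of a cofactor that binds CREB3, was the lowest at 0.861 (0.819 to 0.905). With the trend in GC content and length removed, neither kept its place. MBTPS2 was then at 1.09 and CREB3 at 1.16, and HCFC1 was at 0.926 and CREBZF, another of the list, at 0.855.

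ERN1 (ENSG00000178607.17, chr17:64039142-64130819, minus strand, 8 transcripts) had 825 and 917 counts, or 17.7 CPM (16.0 to 19.5) and 23.5 CPM (21.4 to 25.7). These intervals do not overlap. The ratio was 1.33 (1.16 to 1.52), below the size of a call. The genes of other sensors of the unfolded protein response lay on both sides of 1, and none was called. EIF2AK3, which encodes PERK, was at 1.28 (1.13 to 1.45) and ATF6 at 1.29 (1.22 to 1.36). ATF6B was lower, at 0.790 (0.733 to 0.850). With the trend in GC content and length removed, ERN1 was at 1.32, EIF2AK3 at 1.20, ATF6 at 1.13 and ATF6B at 0.880. Per kilobase, the ERN1 share of the summed level of ERN1, EIF2AK3 and ATF6 was 8.68% and 8.96%. ERN2, the paralogue of ERN1, had 0 and 10 counts.

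The other listed genes of the response, with the sensors ERN1, ERN2, EIF2AK3, ATF6 and ATF6B left out, had ratios on both sides of 1. All 26 reached 1 CPM, 12 had ratios above and 14 below 1, and the median log2 ratio was -0.071. DNAJB9, the gene of an ER chaperone that IRE1 and XBP1 induce, was the 1 called higher, 3.85% of the 26 against 5.05% of all genes, at 1.52 (1.26 to 1.83), and 0 were called lower. Its call was lost with DESeq2 size factors (1.49) and with the trend in GC content and length removed (1.37). XBP1 mRNA, the splicing substrate of IRE1, was at 0.876 (0.859 to 0.893), and gene counts do not tell its spliced from its unspliced form. HSPA5, the gene of the ER chaperone BiP, was at 1.05 (1.02 to 1.08). BLOC1S1, whose mRNA IRE1 is known to cleave, had 110 and 65 counts, a ratio of 0.707 (0.443 to 1.11).

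The p160 coactivator genes all differed by less than 1.5-fold, with NCOA1 the highest. NCOA1 (ENSG00000084676.16, chr2:24491914-24770702, plus strand, 11 transcripts) had 2034 and 2173 counts, or 43.6 CPM (40.9 to 46.3) and 55.6 CPM (52.4 to 59.1), a ratio of 1.28 (1.17 to 1.39). NCOA2 (ENSG00000140396.13, chr8:70109762-70403805, minus strand, 8 transcripts) was the most abundant of the 8 genes. It had 6285 and 5811 counts, or 134.6 and 148.8 CPM, a ratio of 1.11 (1.05 to 1.16). Counting error is small at this depth, so the interval excludes 1 although the difference is small. After removal of the trend in GC content and length, NCOA1 was at 1.16 and NCOA2 at 0.991, so the direction for NCOA2 depended on that trend.

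The third p160 gene, NCOA3, dominated the family. Its level was 758 and 806 CPM, and its ratio 1.06 (1.04 to 1.09), or 0.947 with the trend in GC content and length removed. Per kilobase it made up 83.0% of the p160 level under ASO-NC and 81.9% under ASO-1235, NCOA2 12.4% and 12.7%, and NCOA1 4.64% and 5.50%. Of 28 listed coactivator and corepressor genes, all 28 reached 1 CPM, 2 (7.14%) were called higher, near the 5.05% of all genes, and 0 lower, with a median log2 ratio of 0.07. The called genes were NCOA7 at 1.60 (1.35 to 1.90) and PPARGC1A, the gene of PGC-1 alpha, at 1.55 (1.32 to 1.82), which stood at 1.41 and 1.36 and were not called after removal of the trend in GC content and length. NRIP1, which encodes the corepressor RIP140, was at 1.40 (1.30 to 1.51), or at 1.19 with that trend removed.

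**Figure D3:**
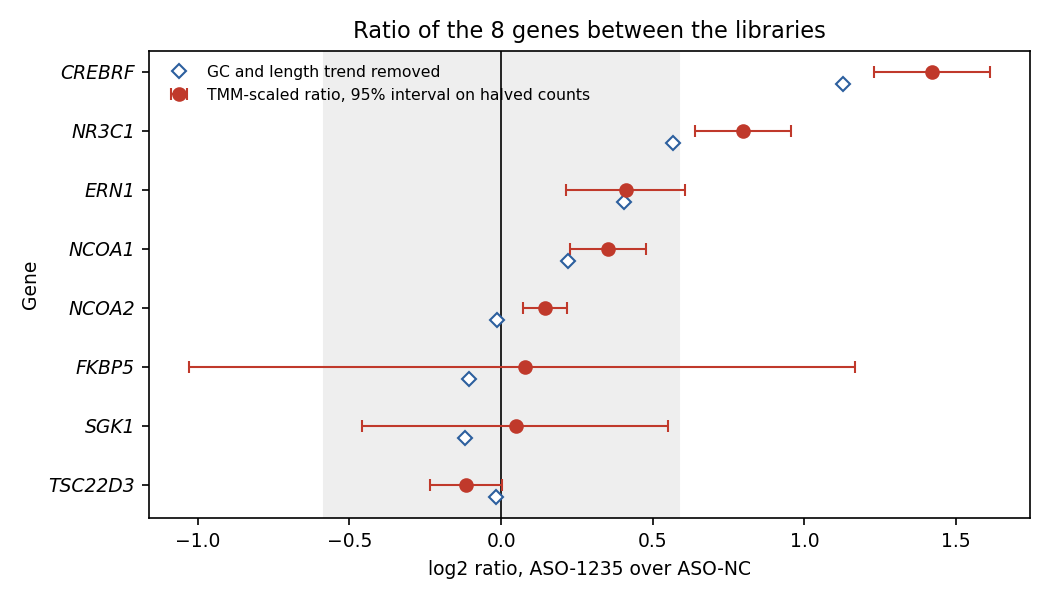
The log2 ratio of each gene, with its 95% interval on halved counts as bars, the range within 1.5-fold shaded, and diamonds for the value after removal of the trend with GC content and length. CREBRF lies outside the shaded range both ways, at 1.42 and 1.13, and NR3C1 moves from 0.80 to 0.57, just inside it.

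Ratios of the 8 genes can be set against each other without any choice of library scaling. The trend with GC content and length differs between genes and was left in these pairs. With it removed, the ratios were 2.18 for CREBRF, 1.48 for NR3C1, 0.920 for SGK1 and 0.989 for TSC22D3. Of the 28 pairs, 17 had an interval of the ratio of ratios that excluded 1. CREBRF stood above each of the other 7, by 1.54-fold (1.30 to 1.82) over NR3C1 and 2.90-fold (2.49 to 3.38) over TSC22D3. NR3C1 stood 1.88-fold (1.64 to 2.15) above TSC22D3 and 1.68-fold (1.18 to 2.39) above SGK1. Over FKBP5 the value for NR3C1 was 1.65 (0.815 to 3.32), which its few counts leave wide. ERN1 and NCOA1 could not be told apart, at 1.04 (0.888 to 1.22).

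In levels per kilobase of exon, the order in the ASO-NC library was NCOA2 at 13.4 CPM per kb, TSC22D3 at 12.1, NCOA1 at 5.05, NR3C1 at 2.60, ERN1 at 1.63, CREBRF at 1.15, SGK1 at 0.317 and FKBP5 at 0.0685. In the ASO-1235 library CREBRF, at 3.08 CPM per kb, stood above ERN1 at 2.16, and the rest of the order was the same. No neighbours in either order had counting intervals that overlap. The exon lengths are unions over GENCODE 29 transcripts, so a gene read from short isoforms would be understated.

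The transcripts of these genes differ in GC content, and the ratio of all genes fell with GC content. Among the 2793 genes of lowest GC content the median log2 ratio was 0.20 and 8.52% were called higher. Among the 2793 of highest GC content these were -0.19 and 2.40%. CREBRF, at 35.8% GC, and NR3C1, at 39.1%, both lie in the group of lowest GC content. With the trend in GC content and length removed, CREBRF had a ratio of 2.18 and stayed called, and NR3C1 had 1.48 and was no longer called. ERN1, at 50.8% GC, stood at 1.32, and NCOA1 at 1.16. SGK1, FKBP5 and NCOA2 fell just below 1, at 0.920, 0.929 and 0.991, and TSC22D3 was at 0.989.

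**Figure D4:**
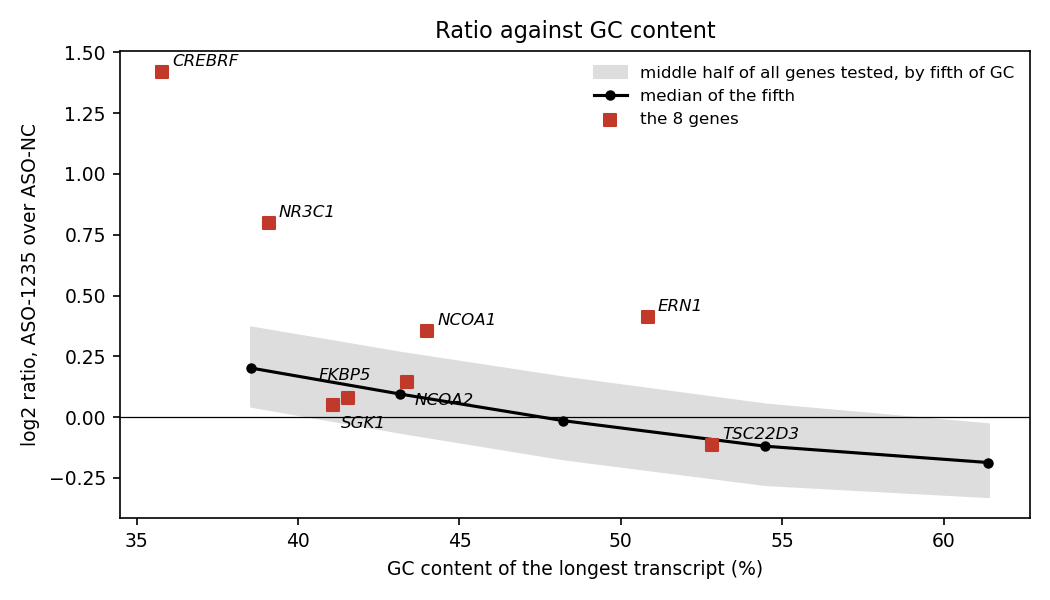
The log2 ratio of the 8 genes (squares) against the GC content of their longest transcript in percent, with the median (line) and interquartile range (band) of all genes tested in each of 5 equal groups by GC content. CREBRF, NR3C1, ERN1 and NCOA1 lie above the band, and SGK1, FKBP5, NCOA2 and TSC22D3 lie within it.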

How the data were processed

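The values are counts per gene as the authors deposited them, whole numbers that show no sign of normalization. Per the submitters' processing notes, the tools were STAR 2.7.11a and featureCounts 2.0.6 and the build was hg38. The sources used here do not give the annotation release or the strand setting. All 62699 gene IDs with counts matched a symbol, and 3 lines without counts were left out. Among genes with 1 to 1000 counts, 67.5% and 64.0% of the counts were even. Intervals therefore used halved counts and cover counting error only. Where strand is unknown, overlapping genes cannot be told apart. At most 6 counts in a library fell on any gene that overlaps one of the 8.

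Libraries were scaled with TMM (edgeR 4.0.16, R 4.3.3), with factors of 0.971 and 1.03. edgeR made no test here. The trend in GC content and log2 transcript length (longest transcript, GENCODE 29) was fitted with statsmodels 0.14.6 in Python 3.11.15, by robust regression with a 5-df spline for each, and removed as an alternative. Others were DESeq2 1.42.0 size factors, total count with and without mitochondrially encoded genes, upper quartile, other minimum levels, another size of change, different intervals, and 5 counts added as a prior. The calculation was tested on simulated data. The 8 genes and all gene lists were chosen with earlier results of these data known. One receptor gene and one immune marker are not reported here. Named are the 8, their paralogues, up to 4 called genes each way per list by the interval bound nearest to 1, or the highest and lowest ratio where none was called, and others as stated or as examples chosen after their values were seen.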

Additional observations from a re-analysis of the deposited data

How the results depend on the processing

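The scaling, the size asked for, the minimum level and the interval set how many genes were called, from 722 higher and 290 lower. At 2-fold the counts were 320 higher (2.24%) and 74 lower (0.518%), and with a minimum of 5 CPM they were 270 and 104. Without a minimum 1126 were higher, and with 1 CPM asked of both libraries, an alternative chosen after seeing the data, 473 were. A 99% interval left 550 higher and 185 lower. Scaling by total count gave 1032 higher and 180 lower, and DESeq2 size factors 646 and 355. CREBRF was called under every alternative run, with ratios from 2.18 to 2.84. NR3C1 ranged from 1.48 to 1.84. It lost its call at 2-fold and once the trend in GC content and length was taken out. No other of the 8 changed its call. With that trend removed, log2 ratios were 1.13 for CREBRF, 0.57 for NR3C1, 0.22 for NCOA1 and -0.013 for NCOA2. NCOA2 was at 0.23 with scaling by total count. The cause was not tested. No called gene of the lists changed direction. No paired analysis was possible because each group has 1 library, and for the same reason no library could be left out. FKBP5, with 34 and 30 counts, is the gene that depth limits most.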
